A study of Mus musculus with 6 samples.

Results

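Genes of fatty acid oxidation, of ketone body metabolism and of the PPARA programme were examined in mouse liver, as a set of 39 genes. They were chosen by their known roles, with earlier results of these data known. Each was looked up by symbol among the 15092 genes of the deposited table. All 39 were present and all 39 passed the filter on low counts. The samples were 3 liver RNA samples labelled CRY1 KO and 3 labelled WT, of the C57BL/6J strain, with polyadenylated RNA sequenced in 1 library each. The tissue is given as liver and the cell type as hepatocyte with no sort described; the labels state that no treatment was given, and do not give age, sex, feeding state or time of day. They do not describe the allele behind the knockout, and every title carries a prefix, NC, that is not explained there. Nothing in the labels says that replicates came from separate animals, so p-values rest on the spread over these libraries alone, part of which may be technical.

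Fatty acids enter the hepatocyte, are activated to acyl-CoA and cross into mitochondria on carnitine, where a cycle of dehydrogenases, hydratases and thiolases shortens them and passes electrons to the respiratory chain. Very long and branched chains are shortened first in peroxisomes, and the acetyl-CoA that the liver does not burn leaves it as ketone bodies. PPARA is a nuclear receptor activated by fatty acids that, with its partner RXRA, induces many of these genes in fasted liver. Cryptochromes such as CRY1 repress the CLOCK and BMAL1 transcription factors of the circadian clock, and lipid oxidation in liver varies with the time of day and with feeding.

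The total estimated count per library ranged from 79708703 to 91316332. Levels are given as CPM, which sets each count against the size of its library after TMM scaling. Differences are on the log2 scale, CRY1 KO-labelled libraries minus WT, with the standard error (SE). Cry1 itself did not separate the groups, with 6.95, 6.41 and 5.22 CPM in CRY1 KO-labelled libraries and 4.80, 6.89 and 7.24 CPM in WT (log2 -0.03, SE 0.19, edgeR adjusted p = 0.954). The value covers the whole gene and leaves the knockout labels unchecked, so every direction below is that of the labels. Hepatocyte markers were abundant in all 6 libraries, among them Alb and Apoa1. All 9 markers of Kupffer cells, the macrophages of liver, were detected in every library. All 9 were lower on average in the libraries labelled CRY1 KO, with 0 called, where edgeR called 0.644% of all tested genes lower. In 7 of the 9 all libraries labelled CRY1 KO lay below all WT libraries, against 12.7% of all tested genes. The Kupffer markers summed to 198 to 199 CPM in CRY1 KO-labelled libraries, against 573, 357 and 217 CPM in WT 1, 2 and 3. The 5 red blood cell markers summed to 581 to 735 CPM in CRY1 KO-labelled libraries, against 2971, 1023 and 654 CPM in WT. Of 6 lymphocyte markers 5 were negative and 1 fell, Jchain of plasma cells, with 1.51, 0.947 and 1.04 CPM in libraries 1, 2 and 3 labelled CRY1 KO, against 5.84, 4.12 and 9.23 CPM in WT 1, 2 and 3. Of the fat cell markers, Adipoq had estimated counts of 0, 0 and 0 in the libraries labelled CRY1 KO and 5, 0 and 6 in WT. The part of these cell types in the differences below was not tested.

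Of the 39 genes 3 rose in the libraries labelled CRY1 KO past an edgeR adjusted p of 0.05 over all tested genes, a share of 7.69%, where 1.70% of the 13816 tested genes passed in either direction and 1.06% passed as higher. They were Cpt1a and Slc22a5 of the carnitine shuttle and Pnpla2 of lipid droplet breakdown. By edgeR 0 fell, and DESeq2 and limma also called 0 lower, where these tools called 0.644%, 3.87% and 0.818% of all tested genes lower. At an unadjusted edgeR p under 0.05, 8 genes (20.5%) were higher and 1 (2.56%) was lower, where 10.9% and 9.84% of all tested genes were, 20.7% in either direction. The log2 difference was positive for 30 of the 39 genes (76.9%, against 47.3% of all tested genes), with a median of 0.11 against -0.02 over all tested genes. The groups did not overlap in 14 genes (35.9%, against 27.3% of all tested genes), 11 with all libraries labelled CRY1 KO higher and 3 with all of them lower. That is 28.2% and 7.69% of the list, against 14.6% and 12.7%. In bulk tissue, fewer cells of a type and less RNA per cell cannot be told apart.

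**Figure D1:**
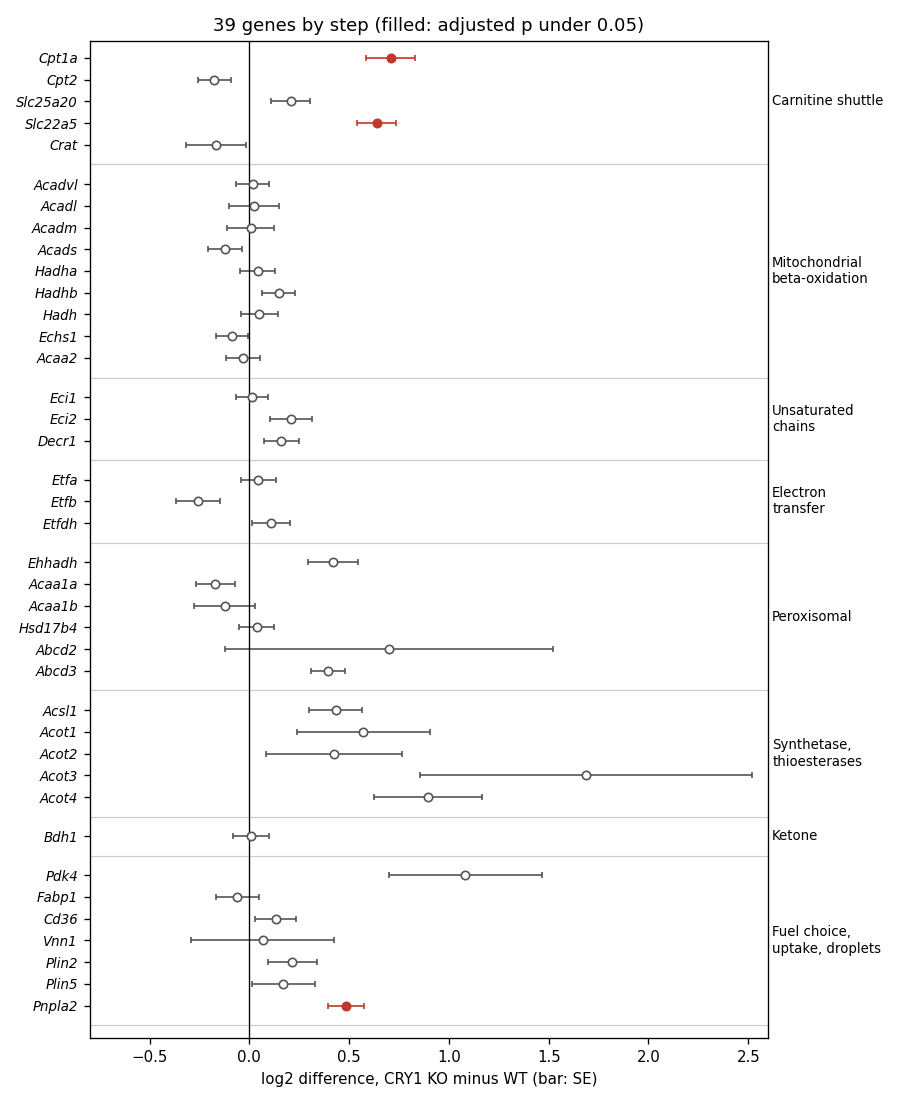
Log2 difference of each of the 39 genes (x axis, libraries labelled CRY1 KO minus WT, bars show the SE), ordered from top to bottom by step. The 3 filled points, Cpt1a, Slc22a5 and Pnpla2, passed the adjusted threshold, and the genes of mitochondrial beta-oxidation lie between -0.12 and 0.15.

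Cpt1a encodes the carnitine palmitoyltransferase of the outer mitochondrial membrane, the step that sets the rate at which long-chain fatty acids enter mitochondria. It stood at 333, 337 and 413 CPM in libraries 1, 2 and 3 labelled CRY1 KO, against 219.9, 196 and 246 CPM in WT 1, 2 and 3. The lowest library labelled CRY1 KO lay above the highest WT library. The means were 361 ± 45.0 CPM in CRY1 KO-labelled libraries and 221 ± 25.0 CPM in WT (SD, n = 3 each), a 1.63-fold rise (log2 0.71, SE 0.12, edgeR adjusted p = 0.0365). Slc22a5 encodes the plasma membrane transporter that brings carnitine into the cell. Its level was 20.0, 18.5 and 19.8 CPM in libraries 1, 2 and 3 labelled CRY1 KO, against 13.5, 12.2 and 11.8 CPM in WT 1, 2 and 3. The groups were again separate, and the rise was 1.56-fold (log2 0.64, SE 0.10, edgeR adjusted p = 0.0273). Of the 50-base stretches of the Slc22a5 transcript, 26.9% also occur in its relative Slc22a21, which stood at 1.80, 1.77 and 1.61 CPM in CRY1 KO-labelled libraries, against 1.21, 1.37 and 1.67 CPM in WT, so a part of the reads could have been assigned to either gene. Pnpla2 encodes adipose triglyceride lipase, which starts the release of fatty acids from stored triglyceride. Its level was 77.7, 70.6 and 78.6 CPM in libraries 1, 2 and 3 labelled CRY1 KO, against 58.6, 52.1 and 51.4 CPM in WT 1, 2 and 3, without overlap. It rose 1.40-fold (log2 0.49, SE 0.09, edgeR adjusted p = 0.0417).

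These 3 calls were close to the threshold and did not survive every setting. Without WT 2, or without any one of the libraries labelled CRY1 KO, edgeR called 0 of the 39 genes. Over the whole table it called 17 of 14039 genes without WT 2. Without libraries 1, 2 and 3 labelled CRY1 KO it called 40 of 14035, 20 of 14019 and 30 of 14005. These fits called few genes of any kind, so 0 of 39 does not set these genes apart. Without WT 3 edgeR called 6 of the 39 (15.4%, where 6.04% of all genes in that fit passed and 3.41% passed as higher). The log2 difference stayed between 0.61 and 0.80 for Cpt1a, 0.60 and 0.70 for Slc22a5, and 0.45 and 0.55 for Pnpla2 over the 6 fits that each left out 1 library. Without scaling of the libraries 0 passed either, where 113 of all 13816 tested genes did. The edgeR adjusted p was then 0.0848, 0.0596 and 0.0941 for these genes in that order. DESeq2 called 8 higher, among them all 3 (20.5%, where DESeq2 called 5.19% of all tested genes higher and 9.06% in either direction).

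**Figure D2:**
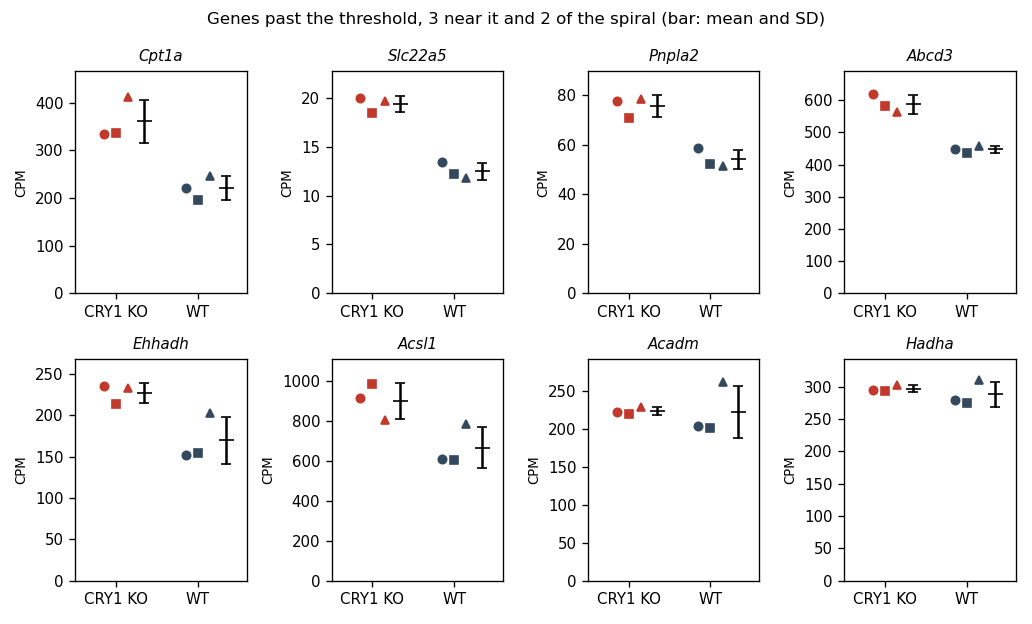
CPM (y axis) in each library for the 3 genes that rose, 3 with separate groups that did not pass in edgeR, and 2 genes of the mitochondrial cycle, libraries labelled CRY1 KO at left and WT at right, with circles, squares and triangles for replicates 1, 2 and 3 and bars for mean and SD. Cpt1a, Slc22a5, Pnpla2, Abcd3, Ehhadh and Acsl1 show separate groups, and Acadm and Hadha overlap.

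The promoters of the 3 genes that rose are shown so that they can be read for the DNA elements that PPARA and the clock factors bind. Each window runs from 250 bases before the RefSeq start site to 50 bases after it, on build GRCm38.p6. Capitals mark the nuclear receptor half-site AGGTCA on either strand, so a half-site on the minus strand appears as its complement read backwards. The Cpt1a window is chr19:3323051-3323350, plus strand, the Slc22a5 window chr11:53891654-53891953, minus strand, and the Pnpla2 window chr7:141454938-141455237, plus strand.
Cpt1a: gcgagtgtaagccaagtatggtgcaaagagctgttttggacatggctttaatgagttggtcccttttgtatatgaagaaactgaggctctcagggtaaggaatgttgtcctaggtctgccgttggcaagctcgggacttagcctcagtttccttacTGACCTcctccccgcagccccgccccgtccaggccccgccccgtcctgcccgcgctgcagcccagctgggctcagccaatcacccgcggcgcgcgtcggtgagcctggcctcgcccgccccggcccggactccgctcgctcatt
Slc22a5: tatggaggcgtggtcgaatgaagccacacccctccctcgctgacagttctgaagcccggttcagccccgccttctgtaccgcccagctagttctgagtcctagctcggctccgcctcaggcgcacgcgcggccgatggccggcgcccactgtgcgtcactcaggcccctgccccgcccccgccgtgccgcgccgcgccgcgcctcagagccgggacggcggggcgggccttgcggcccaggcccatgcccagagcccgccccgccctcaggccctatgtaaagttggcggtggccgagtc
Pnpla2: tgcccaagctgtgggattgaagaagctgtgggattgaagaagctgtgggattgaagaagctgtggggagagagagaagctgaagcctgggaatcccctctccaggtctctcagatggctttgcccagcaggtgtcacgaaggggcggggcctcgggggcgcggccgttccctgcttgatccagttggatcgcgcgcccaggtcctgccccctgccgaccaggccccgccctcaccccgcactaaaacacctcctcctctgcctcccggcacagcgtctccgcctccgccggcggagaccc
The Cpt1a window held 1 half-site, on the minus strand of the gene and starting 94 bases before the start site. Those of Slc22a5 and Pnpla2 held neither that half-site nor the E-box CACGTG, the letters that CLOCK and BMAL1 bind. This says only that these letters are not in these windows.

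Among the other carnitine genes the differences were small. Slc25a20, the carrier that exchanges acylcarnitine for carnitine across the inner membrane, stood at 75.7, 72.1 and 74.2 CPM in libraries 1, 2 and 3 labelled CRY1 KO, against 56.8, 64.4 and 71.0 CPM in WT 1, 2 and 3. All libraries labelled CRY1 KO were higher by a narrow margin (log2 0.21, SE 0.10, edgeR adjusted p = 0.271). Cpt2, which returns the acyl group to coenzyme A inside the mitochondrion, went the other way without passing, at 118, 115 and 106 CPM in CRY1 KO-labelled libraries, against 125, 132 and 126 CPM in WT (log2 -0.18, SE 0.08). Crat, which acts on short acyl groups, overlapped between groups, with a log2 difference of -0.17. Thus 2 of the 5 carnitine genes rose in edgeR and 3 did not pass, where 1.06% of all tested genes rose.

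The mitochondrial cycle itself showed little difference. Of its 9 genes, 0 passed in edgeR, in DESeq2 or in limma and 0 had an unadjusted edgeR p under 0.05. Over all tested genes 1.70% passed in edgeR, 9.06% in DESeq2 and 303 of 13816 in limma, and 20.7% had such an unadjusted p. In a list of 9 genes, 0 adjusted calls is near those shares. Their log2 differences ran from -0.12 for Acads to 0.15 for Hadhb, with a median of 0.02. The 95% intervals from limma all included 0, and across the 9 genes they reached no lower than -0.31 and no higher than 0.34 on the log2 scale. The acyl-CoA dehydrogenases, which open each round and differ in the chain length they prefer, had differences of 0.02 (Acadvl), 0.02 (Acadl), 0.01 (Acadm) and -0.12 (Acads). Acadm, the medium-chain enzyme, stood at 223, 219.6 and 229.6 CPM in libraries 1, 2 and 3 labelled CRY1 KO, against 204, 202 and 263 CPM in WT 1, 2 and 3. The WT libraries spanned the others from both sides, WT 3 being the highest of all 6. The sign of the Acadvl, Acadl and Acadm differences turned negative without scaling of the libraries and when single libraries were left out.

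Hadha and Hadhb, the subunits of the trifunctional protein of long-chain oxidation, had differences of 0.04 and 0.15. Hadhb was slightly higher in every library labelled CRY1 KO, at 160.3, 165 and 165 CPM in CRY1 KO-labelled libraries, against 141, 144 and 157 CPM in WT, but 61.5% of its 50-base stretches also occur in the transcript of the annotated gene Gm13910. Echs1, the short-chain hydratase, was lower in each of them, at 166, 168 and 169 CPM in CRY1 KO-labelled libraries, against 172, 186 and 176 CPM in WT (log2 -0.09, edgeR adjusted p = 0.579), and so was Acads, at 142, 143 and 127 CPM in CRY1 KO-labelled libraries, against 148, 149.7 and 149 CPM in WT (edgeR adjusted p = 0.446). Hadh, which oxidises shorter hydroxyacyl groups, and Acaa2, the thiolase that closes the round, overlapped with differences of 0.05 and -0.03. Acaa2 stood at 631, 625 and 619.6 CPM in CRY1 KO-labelled libraries, against 619.5, 633 and 665 CPM in WT. It was the most abundant gene of the cycle per length of transcript, at 412 CPM per kb in the libraries labelled CRY1 KO and 421 CPM per kb in WT.

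Unsaturated chains need helpers to enter this cycle. Eci2, an enoyl-CoA isomerase, stood at 187, 171 and 198 CPM in CRY1 KO-labelled libraries, against 154, 148 and 179 CPM in WT, where WT 3 lay above the library labelled CRY1 KO 2 (log2 0.21, SE 0.11). Decr1, the dienoyl-CoA reductase, was higher in each library labelled CRY1 KO, at 145, 130.0 and 129.7 CPM in CRY1 KO-labelled libraries, against 119, 116 and 127 CPM in WT, without passing (edgeR adjusted p = 0.333), and Eci1 differed by 0.01. Electrons from the dehydrogenases pass through the flavoprotein encoded by Etfa and Etfb to the ubiquinone reductase encoded by Etfdh. Etfa and Etfdh had differences of 0.05 and 0.11, and Etfa stood at 242, 241 and 221 CPM in CRY1 KO-labelled libraries, against 218, 225 and 239.7 CPM in WT. Etfb had the lowest difference of the 39 genes, at 182, 174 and 159 CPM in libraries 1, 2 and 3 labelled CRY1 KO, against 224, 211 and 179 CPM in WT 1, 2 and 3. The groups overlapped through WT 3 and did not pass (log2 -0.26, SE 0.11, edgeR adjusted p = 0.225), and 67.3% of the 50-base stretches of Etfb occur also in the overlapping annotated gene Gm45233.

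Of the 6 peroxisomal genes 0 passed in edgeR, where 1.70% of all tested genes did. The groups were separate in 2, Abcd3 and Ehhadh, where 27.3% of all tested genes had separate groups. DESeq2 called both higher (DESeq2 adjusted p = 0.000642 and 0.034), where it called 5.19% of all tested genes higher. Abcd3, a peroxisomal membrane transporter of acyl-CoA, stood at 618, 581 and 562 CPM in libraries 1, 2 and 3 labelled CRY1 KO, against 447, 435 and 459 CPM in WT 1, 2 and 3. The groups were separate, with means of 587 ± 28.7 CPM in CRY1 KO-labelled libraries and 447 ± 11.9 CPM in WT (SD, n = 3 each), and the 1.31-fold difference did not pass (log2 0.39, SE 0.09, edgeR adjusted p = 0.0614). Ehhadh, the bifunctional enzyme that is a classical PPARA target, stood at 236, 213 and 233 CPM in libraries 1, 2 and 3 labelled CRY1 KO, against 153, 155 and 203 CPM in WT 1, 2 and 3. WT 3 was nearest to the libraries labelled CRY1 KO, and the log2 difference was 0.42 (SE 0.12, edgeR adjusted p = 0.116). Without WT 3 both genes passed, with edgeR adjusted p = 0.0424 and 0.0189, and over the 6 fits that left out a library these p ranged from 0.0424 to 0.219 and from 0.0189 to 0.33.

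Hsd17b4, the other bifunctional enzyme of peroxisomes, differed by 0.04, with a 95% interval from limma of -0.17 to 0.24. The peroxisomal thiolases Acaa1a and Acaa1b had negative differences of -0.17 and -0.12 and overlapped between groups. They share 34.0% of the 50-base stretches of Acaa1a and 35.5% of those of Acaa1b, so the division of reads between them is uncertain. Acaa1b, the more abundant, stood at 759, 635 and 611 CPM in CRY1 KO-labelled libraries, against 646, 645 and 894 CPM in WT, and its sign turned positive (0.05) without WT 3. Abcd2, another peroxisomal transporter, was scarce and variable, at 3.85, 1.60 and 10.2 CPM in CRY1 KO-labelled libraries, against 1.42, 2.59 and 5.61 CPM in WT. Its sign turned negative (-0.23) without the third library labelled CRY1 KO.

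Acsl1, the main long-chain acyl-CoA synthetase of liver, activates fatty acids before either route. It stood at 911, 981 and 801 CPM in libraries 1, 2 and 3 labelled CRY1 KO, against 608, 605 and 783 CPM in WT 1, 2 and 3, with the groups separate by a small gap between WT 3 and the third library labelled CRY1 KO (log2 0.43, SE 0.13, edgeR adjusted p = 0.123). DESeq2 called it higher with all libraries (DESeq2 adjusted p = 0.0323). Without WT 3 it passed in edgeR (edgeR adjusted p = 0.0345), and this p ranged from 0.0345 to 0.345 over the libraries left out. Thioesterases reverse that reaction, in the cytosol (Acot1), in mitochondria (Acot2) or in peroxisomes (Acot3 and Acot4). Acot4 stood at 26.5, 18.7 and 38.0 CPM in libraries 1, 2 and 3 labelled CRY1 KO, against 11.9, 15.5 and 17.3 CPM in WT 1, 2 and 3, separate but widely spread (log2 0.90, SE 0.27, edgeR adjusted p = 0.138). DESeq2 called it higher (DESeq2 adjusted p = 0.0072). Acot1 stood at 13.8, 11.5 and 17.9 CPM in CRY1 KO-labelled libraries, against 5.51, 10.1 and 13.5 CPM in WT (log2 0.57, SE 0.33), and its difference was 0.29 without WT 1 and 0.88 without WT 3. Acot2 stood at 4.65, 2.77 and 5.58 CPM in CRY1 KO-labelled libraries, against 1.99, 3.31 and 4.37 CPM in WT (log2 0.43, SE 0.34), with 0.17 and 0.71 under the same omissions. In all 4 thioesterase genes the third library labelled CRY1 KO was the highest of the 6 and WT 1 the lowest.

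Acot3 was the scarcest of the 39 genes per length and had the greatest fitted difference, 1.69 (SE 0.83, edgeR adjusted p = 0.304). Its level was 0.768, 0.689 and 3.04 CPM in CRY1 KO-labelled libraries, against 0.105, 0.749 and 0.542 CPM in WT, or estimated counts of 62, 56 and 259 against 9, 63 and 52. The difference was 0.65 without the third library labelled CRY1 KO, which carried most of it, and 11.2% of the 50-base stretches of Acot3 occur also in the annotated gene Gm49366. Acot1 and Acot2 share 23.9% and 24.5% of their 50-base stretches with each other, so their values are uncertain against each other. The Acot4 promoter is shown because it was 1 of 2 member windows with an E-box, and because it held a near match to the element bound by PPARA with RXRA, a direct repeat of the half-site with 1 base between, AGGTCANAGGTCA (chr12:84038129-84038428, plus strand, GRCm38.p6). Capitals mark, in order, the E-box 66 bases before the start site and, on the minus strand of the gene, that repeat with 2 mismatches, 13 bases before it.
Acot4: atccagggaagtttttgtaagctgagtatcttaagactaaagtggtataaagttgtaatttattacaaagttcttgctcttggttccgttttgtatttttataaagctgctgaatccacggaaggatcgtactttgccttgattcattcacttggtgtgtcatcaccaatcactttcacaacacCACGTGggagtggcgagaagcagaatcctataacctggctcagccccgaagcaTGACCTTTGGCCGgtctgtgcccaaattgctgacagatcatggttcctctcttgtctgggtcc

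**Figure D3:**
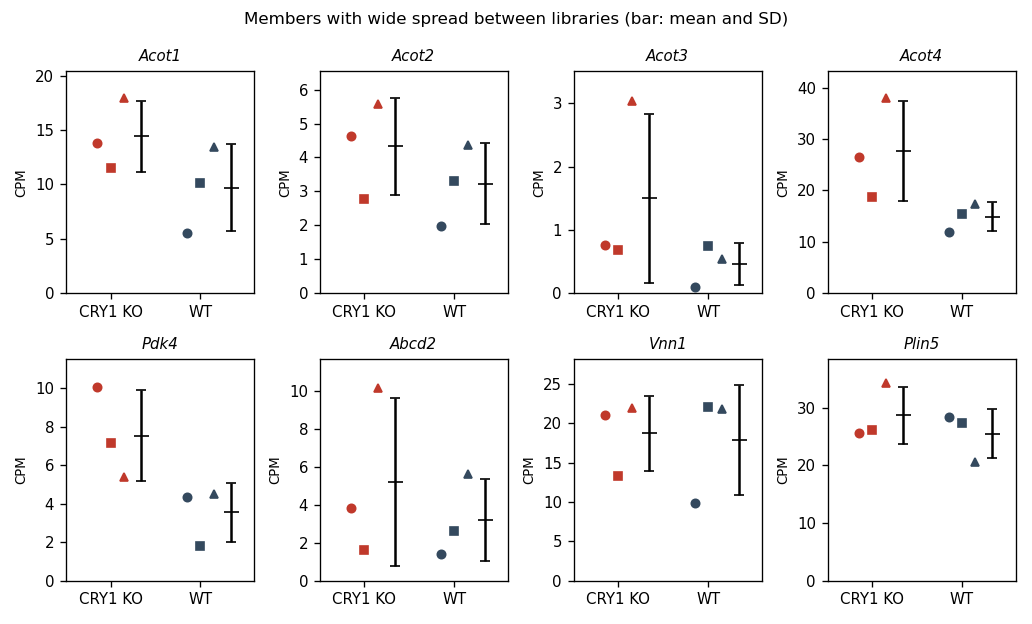
CPM (y axis) in each library for 8 members with wide spread, libraries labelled CRY1 KO at left and WT at right, symbols for replicates 1 to 3 and bars for mean and SD. In the panels of Acot1 to Acot4 the red triangle, the third library labelled CRY1 KO, is the highest point and the dark circle, WT 1, the lowest.

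The ketone step had a single member. Bdh1, which interconverts the ketone bodies acetoacetate and hydroxybutyrate, stood at 172, 162 and 178 CPM in libraries 1, 2 and 3 labelled CRY1 KO, against 160.0, 169 and 180.1 CPM in WT 1, 2 and 3. The ranges nearly coincided (log2 0.01, SE 0.09, edgeR adjusted p = 0.973), and the 95% interval from limma was -0.19 to 0.21. The wider list of the pathway held 7 more ketone genes, of which 0 passed in edgeR, with 1 higher and 1 lower at an unadjusted p under 0.05. Over all tested genes 1.70% passed, and 10.9% were higher and 9.84% lower at such an unadjusted p. In a list of 7 genes these counts are near those shares. Slc16a6, reported in zebrafish to export ketone bodies from hepatocytes, was lower in each library labelled CRY1 KO, at 5.77, 3.68 and 4.04 CPM in CRY1 KO-labelled libraries, against 7.26, 9.02 and 6.54 CPM in WT (log2 -0.76, SE 0.21, edgeR adjusted p = 0.0962). DESeq2 called it lower (DESeq2 adjusted p = 0.0148).

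Of the 7 members that act in fuel choice, uptake and lipid droplets, Pnpla2 rose in edgeR and 6 did not pass. Over all tested genes 1.06% rose. Pdk4, the kinase that turns off pyruvate dehydrogenase in fasting, was scarce, at 10.1, 7.14 and 5.41 CPM in libraries 1, 2 and 3 labelled CRY1 KO, against 4.36, 1.80 and 4.53 CPM in WT 1, 2 and 3. The groups were separate with a wide spread (log2 1.08, SE 0.38, edgeR adjusted p = 0.182), and DESeq2 called it. Fabp1, the liver fatty acid binding protein and the most abundant of the 39 genes per length, stood at 2718, 2566 and 2378 CPM in libraries 1, 2 and 3 labelled CRY1 KO, against 2452, 2722 and 2812 CPM in WT 1, 2 and 3. Its groups overlapped widely (log2 -0.06, 95% interval from limma -0.30 to 0.18). Cd36, a fatty acid translocase that macrophages and endothelium also express, differed by 0.13, at 21.1, 21.9 and 23.2 CPM in CRY1 KO-labelled libraries, against 21.6, 17.9 and 20.8 CPM in WT. Kupffer markers moved the other way, with 9 of 9 negative, and their part in the Cd36 value was not tested. Vnn1, a pantetheinase and PPARA target, had a difference of 0.07, with 13.3 CPM in the second library labelled CRY1 KO and 9.81 CPM in WT 1 standing below the other 4, which lay between 21.1 and 22.1 CPM. The lipid droplet coat genes Plin2 and Plin5 differed by 0.22 and 0.17, both with overlap.

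Set side by side, the 20 members of the mitochondrial steps, carnitine shuttle included, had 2 rises in edgeR and a median log2 difference of 0.03. The 6 peroxisomal members had 0 rises and a median of 0.22, and the ketone member 0 rises at 0.01. The 5 activation and thioesterase members had 0 rises and a median of 0.57. Over all tested genes 1.06% rose in edgeR, so 0 rises in lists this short is near that share. DESeq2 called higher Cpt1a and Slc22a5 of the carnitine shuttle, Abcd3 and Ehhadh of the peroxisomal, and Acsl1 and Acot4 of the activation and thioesterase members. Over all tested genes DESeq2 called 5.19% higher. Each gene was counted in 1 step, so the peroxisomal thioesterase genes Acot3 and Acot4 (log2 1.69 and 0.90) are not among the 6 peroxisomal members. Slc22a5 acts at the plasma membrane and was counted in the mitochondrial steps through the carnitine shuttle. The other rise of those steps was Cpt1a. Differences between steps were not tested, and these medians are descriptions that depend on this assignment. Over the fits that left out 1 library, the activation and thioesterase median ranged from 0.37 (without WT 1) to 0.88 (without WT 3), and the peroxisomal median from 0.02 (without the third library labelled CRY1 KO) to 0.23 (without WT 3). Within the mitochondrial steps, the 15 genes of the cycle, of unsaturated chains and of electron transfer held 0 rises and a median of 0.02. In 15 genes 0 rises is also near the share over all tested genes. Deviations of the 39 genes from their mean over all libraries were taken on the log2 scale, with a small constant added to CPM. Their median was 0.11, -0.003 and 0.06 in libraries 1, 2 and 3 labelled CRY1 KO, against -0.12, -0.09 and 0.05 in WT 1, 2 and 3. WT 3 thus lay among the libraries labelled CRY1 KO. It was the highest WT library in 26 of the 39 genes, and WT 1 the lowest WT library in 23. Of the 19 members with a positive difference and overlapping groups, WT 3 was the highest WT library in 12. The summed Kupffer markers put WT 3 nearest to the libraries labelled CRY1 KO as well, as given above, and their part in this order was not tested.

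**Figure D4:**
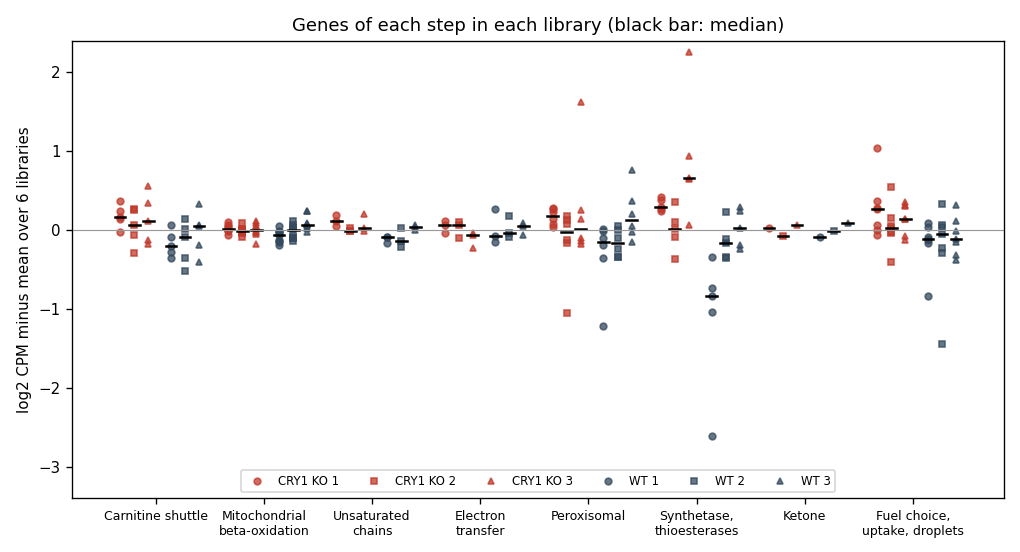
Log2 CPM of each member minus its mean over the 6 libraries (y axis), by step (x axis), with red symbols for the libraries labelled CRY1 KO left of dark symbols for WT and black bars for medians. Mitochondrial beta-oxidation and the ketone gene stay close to 0 in every library, and the activation and thioesterase genes spread widely. With a small constant added to CPM before the log, which the drawn bars lack, their median ran from 0.65 in the third library labelled CRY1 KO to -0.81 in WT 1.

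A wider list of 82 further genes of the pathway was drawn up by role, of which 80 were in the table and 79 were tested. It was made with earlier results of these data known, so its shares and medians are descriptions only. Of these 2 rose and 0 fell in edgeR, a share of 2.53% beside the 1.70% of all tested genes, while 14 were higher (17.7%, against 10.9%) and 6 lower (7.59%, against 9.84%) at an unadjusted p under 0.05. DESeq2 called 14 (17.7%, against 9.06% of all tested genes), 10 higher and 4 lower. Pdk1, a pyruvate dehydrogenase kinase, stood at 82.5, 74.8 and 96.0 CPM in libraries 1, 2 and 3 labelled CRY1 KO, against 43.7, 35.1 and 47.8 CPM in WT 1, 2 and 3. It rose 2.0-fold (log2 1.0, SE 0.14, edgeR adjusted p = 0.0194). Pex11a, which drives the division of peroxisomes and is a PPARA target, stood at 74.4, 74.5 and 78.4 CPM in libraries 1, 2 and 3 labelled CRY1 KO, against 50.2, 40.5 and 42.8 CPM in WT 1, 2 and 3. It rose 1.70-fold (log2 0.77, SE 0.10, edgeR adjusted p = 0.0174). Both kept their calls without scaling and lost them without WT 2 or without any one library labelled CRY1 KO, with edgeR adjusted p of at most 0.0925 for Pdk1 and 0.0923 for Pex11a. The count was 8 without WT 1 (10.1%, where 4.04% of all genes in that fit passed) and 11 without WT 3 (13.9%, against 6.04%). The groups did not overlap in 22 of the 79 genes (27.8%, near the 27.3% of all tested genes), 18 of them higher (22.8%, against 14.6%) and 4 lower (5.06%, against 12.7%). By role, the group listed as PPARA with its partners and targets had 13 of 14 positive differences, against 47.3% of all tested genes. Its median was 0.43 and it held 1 rise, that of Pdk1. Pdk1 was placed in this group by the list, and whether PPARA acts on it was not tested. The further mitochondrial oxidation genes had a median of 0.05 with 0 of 14 called, and the further peroxisomal genes a median of -0.08 with 1 of 13 called, Pex11a.

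Next in order of p came genes that did not pass in edgeR but whose groups were separate. DESeq2 called each of those given in this paragraph, and limma called Acad11 (limma adjusted p = 0.0475). Acad11, an acyl-CoA dehydrogenase, stood at 322, 317 and 331 CPM in CRY1 KO-labelled libraries, against 220.4, 242 and 255 CPM in WT (log2 0.43, SE 0.09, edgeR adjusted p = 0.0515). Acot12, a cytosolic acetyl-CoA thioesterase, stood at 125, 113 and 124 CPM in CRY1 KO-labelled libraries, against 76.0, 81.7 and 100.1 CPM in WT (log2 0.49, edgeR adjusted p = 0.0711). Slc27a2, a very long-chain acyl-CoA synthetase that takes up fatty acids, stood at 1355, 1299 and 1356 CPM in CRY1 KO-labelled libraries, against 850.4, 912 and 1121 CPM in WT (log2 0.48, edgeR adjusted p = 0.0805). Acsm1, a medium-chain synthetase, and Plin3, a droplet coat gene, were lower in each library labelled CRY1 KO. Acsm1 stood at 328, 292 and 294 CPM in CRY1 KO-labelled libraries, against 406, 406 and 371 CPM in WT (log2 -0.37, edgeR adjusted p = 0.077), and Plin3 at 31.9, 25.2 and 30.0 CPM in CRY1 KO-labelled libraries, against 37.9, 41.2 and 39.1 CPM in WT (log2 -0.44, edgeR adjusted p = 0.0736).

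Ppara, its coactivators and Angptl4 were chosen for naming after their values were seen. Ppara itself stood at 51.5, 39.2 and 54.3 CPM in libraries 1, 2 and 3 labelled CRY1 KO, against 20.5, 19.6 and 43.5 CPM in WT 1, 2 and 3. The groups overlapped because WT 3 stood above the second library labelled CRY1 KO (log2 0.79, SE 0.35, edgeR adjusted p = 0.271). Without WT 3 the difference was 1.27 with an edgeR adjusted p = 0.0108, the lowest of the 6 fits that left out a library, whose highest was 0.501. With all libraries DESeq2 called Ppara higher (DESeq2 adjusted p = 0.0481). Its coactivators Ppargc1a and Ppargc1b had differences of 0.67 and 0.93 and did not pass (edgeR adjusted p = 0.253 and 0.135). Ppargc1a passed without WT 1 (log2 1.09, edgeR adjusted p = 0.0124, with a highest p of 0.494 over the libraries left out). Ppargc1b passed without WT 3 (log2 1.31, edgeR adjusted p = 0.0281, with a highest p of 0.348) and with DESeq2. The partner receptor Rxra differed by 0.17. Angptl4, a secreted inhibitor of lipoprotein lipase and a PPARA and glucocorticoid target, stood at 205, 241 and 196 CPM in libraries 1, 2 and 3 labelled CRY1 KO, against 147, 26.7 and 39.2 CPM in WT 1, 2 and 3. WT 1 lay far above the other WT libraries, and the difference did not pass (log2 1.59, SE 0.71, edgeR adjusted p = 0.293). Without WT 1 it was 2.70, with an edgeR adjusted p = 0.000976, where the highest p over the libraries left out was 0.484. The hepatocyte marker Pck1, a gluconeogenic enzyme that rises in fasting, showed the same arrangement, with 2789, 3125 and 3418 CPM in libraries 1, 2 and 3 labelled CRY1 KO, against 2633, 1024 and 1006 CPM in WT 1, 2 and 3.

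**Figure D5:**
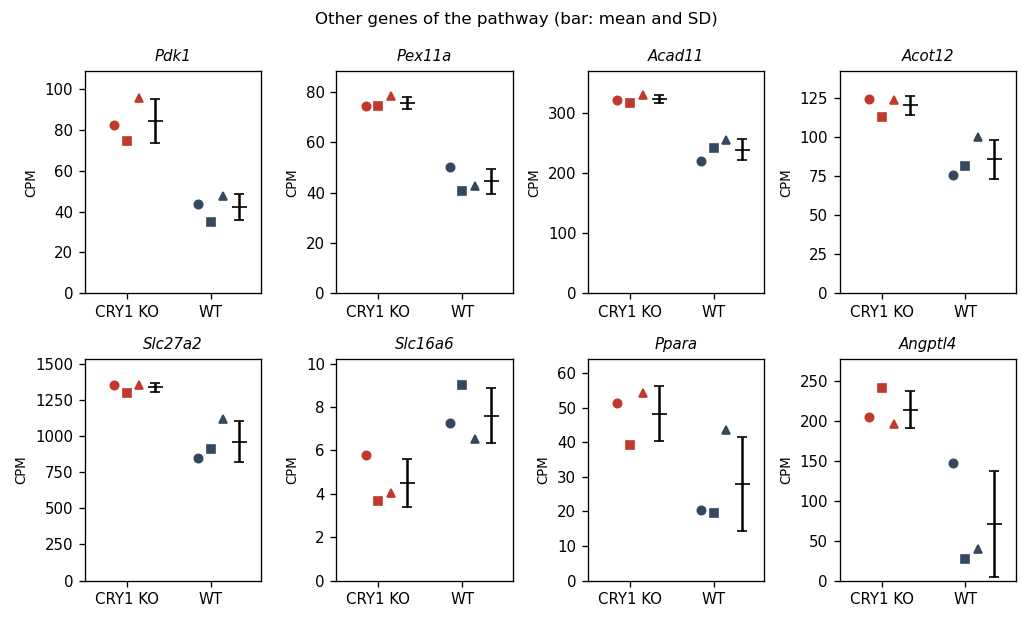
CPM (y axis) in each library for 8 further genes of the pathway, libraries labelled CRY1 KO at left and WT at right, symbols for replicates 1 to 3 and bars for mean and SD. Pdk1 and Pex11a rose, WT 3 (dark triangle) is the highest WT library for Acad11, Acot12, Slc27a2 and Ppara, the libraries labelled CRY1 KO lie below WT for Slc16a6, and WT 1 (dark circle) is the highest for Angptl4.

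Promoter windows were at hand for 33 of the 39 genes. The half-site AGGTCA was present on either strand in 10 of them (30.3%), where 18.1% of 27025 genes with a window held it. The direct repeat AGGTCANAGGTCA was present without mismatch in 0 of the 33 and in 0.0481% of all genes. With up to 2 mismatches it was present in 7 of the 33 (21.2%), against 4.40% of all genes. The search with mismatches was added after the data were seen, and each such match can overlap a half-site counted above. The E-box CACGTG was present in 2 of the 33 (6.1%, Acot4 and Plin2), against 8.09% of all genes. These shares are descriptions without a test, and a match is not a bound site. The 7 matches are shown in the orientation of the repeat, with capitals for letters that equal it and lower case for the spacer and the mismatches.
Fabp1: AGGcCAtAGGTCA
Acot4: cGGcCAaAGGTCA
Slc25a20: AGGTgAaAGGTCg
Echs1: AGGTCAcgGGTCc
Etfa: AGGgCAaAGGTaA
Cd36: AaGTCAgAGGcCA
Plin2: AGGTCAggGGTCc
The Fabp1 match had 1 mismatch and the others 2. Of these 7 genes Acot4 and Slc25a20 had all libraries labelled CRY1 KO above all WT libraries, Echs1 had all of them below, and the other 4 overlapped. Over all tested genes 14.6% were higher without overlap and 12.7% lower. A link between match and level was not tested. Of the 3 genes that rose, 0 had such a match in the window. The Fabp1 window (chr6:71199629-71199928, plus strand, GRCm38.p6) is shown as the closest match to the element in a gene whose level did not separate the groups. Capitals mark the repeat, 67 bases before the start site on the minus strand of the gene, and a further half-site 9 bases before it.
Fabp1: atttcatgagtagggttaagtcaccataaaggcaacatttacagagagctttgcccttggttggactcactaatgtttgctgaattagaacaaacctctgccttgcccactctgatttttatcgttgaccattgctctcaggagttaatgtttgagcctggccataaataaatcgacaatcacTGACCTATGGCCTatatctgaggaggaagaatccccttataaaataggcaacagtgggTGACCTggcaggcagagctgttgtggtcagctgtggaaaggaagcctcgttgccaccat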

How the data were processed

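The deposited table gives 1 whole number per gene and sample, taken here as estimated counts. More genes had the value 3 than 1, 2 or 4, and whether 1 unit is 1 fragment is not known. The submitters' processing notes name StringTie 2.1.7, HISAT2 2.2.1, limma 3.42.2, Trim Galore 0.6.7 and GRCm39 (mm39). The order of these steps, their settings, the annotation and any use of strand are not stated there. Groups and replicate numbers came from the titles.

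Genes were filtered with filterByExpr (minimum count 10, minimum total 15), which left 13816 of 15092, scaled by TMM and tested with edgeR 4.0.16 (quasi-likelihood, robust, Benjamini-Hochberg over all tested genes, threshold 0.05). The 95% intervals come from limma 3.58.1, fitted to log2 CPM (prior count 2). Alternatives were median-ratio scaling, no scaling, no filter, DESeq2 1.42.0, limma, the replicate number as a block, and leaving out each library. The fit was tested on simulated data. Members, lists and the naming rule were chosen with earlier results of these data known. The rule took members past the threshold, the 10 next by p, the most abundant of each step, and the first further pathway genes by p. Genes named outside it were chosen after their values were seen. A few further pathway genes are counted in the list but not reported singly here. Transcript lengths and shared sequence come from GENCODE M21 (GRCm38), and promoters from RefSeq (GRCm38.p6), matched by symbol. No file coordinates were used.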

Additional observations from a re-analysis of the deposited data

How the results depend on the processing

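The number of genes called over the whole table was 235, and moved to 113 without scaling, 1252 with DESeq2 and 94 with the replicate block, and ranged from 17 (without WT 2) to 844 (without WT 3) when single libraries were left out, with 565 without WT 1 and 20 to 40 without a library labelled CRY1 KO. Members called higher numbered 3, against 0 without scaling, 8 with DESeq2, 1 (Cpt1a) with the replicate block, and 0 to 6 over the libraries left out, the 6 without WT 3. Further pathway genes called numbered 2, against 14 with DESeq2 and 0 to 11 over the libraries left out, the 11 without WT 3. Where leaving out a library lowered these counts, the smaller number of samples and the library itself cannot be told apart. Leaving out WT 1 or WT 3 did not lower any of them. The replicate numbers did not pair the samples, since same-numbered libraries had correlations of deviations of -0.066, -0.014 and 0.070.

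The median log2 difference of the members, 0.11, was positive in all 12 alternatives, and ranged from 0.0579 (without WT 1) to 0.162 (without WT 3) over the libraries left out. Of the 39 members 30 kept their sign in all 12, and the other 9 changed it at least once. Without scaling the log2 difference was -0.0056 for Acadvl, -0.0051 for Acadl, -0.0216 for Acadm, -0.012 for Eci1 and -0.014 for Bdh1. Over the libraries left out it ranged from -0.0064 to 0.0489 for Acadvl, -0.0635 to 0.16 for Acadl, -0.06 to 0.14 for Acadm, -0.013 to 0.095 for Hadh, -0.027 to 0.037 for Eci1, -0.22 to 0.0525 for Acaa1b, -0.23 to 1.38 for Abcd2, -0.0329 to 0.0542 for Bdh1 and -0.23 to 0.26 for Vnn1. Of the further genes it ranged from -0.20 to 0.25 for Acat1 and -0.19 to 0.0879 for Cry1, and Acat1 stood at 0.0131 with limma and 0.014 with the replicate block. The cause of these changes was not tested. Low counts limit Acot3 and Fgf21, for which single libraries had estimated counts of 9 and 11.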

Other observations

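Some genes around the pathway set WT 1 apart from the other WT libraries. Lpin2, a phosphatidate phosphatase that also serves as a coactivator, stood at 386, 353 and 417 CPM in libraries 1, 2 and 3 labelled CRY1 KO, against 309, 88.5 and 115 CPM in WT 1, 2 and 3 (log2 1.17, SE 0.51, edgeR adjusted p = 0.276). Without WT 1 its difference was 1.92 (edgeR adjusted p = 0.000976; highest p over the libraries left out 0.494). Acacb, which makes the malonyl-CoA that inhibits carnitine palmitoyltransferase, stood at 88.3, 80.2 and 80.6 CPM in CRY1 KO-labelled libraries, against 109.7, 41.3 and 23.2 CPM in WT, so that WT 1 lay above the libraries labelled CRY1 KO and the other WT libraries below them. Its difference was 0.52 with all libraries and 1.37 without WT 1.

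Fgf21, a fasting hormone induced by PPARA, was scarce, with estimated counts of 61, 75 and 110 in the libraries labelled CRY1 KO, against 43, 11 and 36 in WT (log2 1.56, SE 0.50, edgeR adjusted p = 0.135). Among the droplet genes, Plin4 stood at 6.50, 11.0 and 15.3 CPM in CRY1 KO-labelled libraries, against 4.99, 1.68 and 4.98 CPM in WT (log2 1.49, edgeR adjusted p = 0.184) and Cidec at 1.80, 2.0 and 2.17 CPM in CRY1 KO-labelled libraries, against 1.28, 0.69 and 1.25 CPM in WT (log2 0.89, edgeR adjusted p = 0.139). DESeq2 called Fgf21 and Plin4 higher and did not call Cidec. Both droplet genes were higher in each library labelled CRY1 KO. Lipe, the hormone-sensitive lipase, was lower in each of these libraries, at 9.45, 9.68 and 10.8 CPM in CRY1 KO-labelled libraries, against 11.3, 16.5 and 16.3 CPM in WT (log2 -0.56, SE 0.16, edgeR adjusted p = 0.102), in the direction opposite to the lipase gene Pnpla2. DESeq2 called Lipe lower.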
